A study of Canis lupus familiaris with 77 samples.

Results

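The miRNAs described are cfa-miR-10a, cfa-miR-10b, cfa-miR-196a and cfa-miR-196b of the dog, written below without the species prefix, 4 of the 650 miRNAs with at least 1 read in the table. They are dog rows of miR-10 and miR-196 genes that lie inside the HOX clusters, and the rule that selects them uses names and no measured value. Other miRNA genes of these clusters were not sought. Small RNA of 16 tissues from untreated male beagle dogs, 10 months old, was sequenced, which gave 76 libraries. Colon had 4 samples, sciatic nerve had 2 and each of the other 14 tissues had 5. The dogs were perfused with buffered saline before the organs were taken, the skeletal muscle was quadriceps, and plasma was drawn into EDTA tubes. The labels carry no dog number, so samples of different tissues could not be paired. The study's methods give 5 dogs for all tissues, so samples of different tissues share animals, which the fits treat as independent, and p-values measure the spread between samples only. The study describes the nerve samples both as individual samples and as portions of a pool, so the spread of those 2 libraries may be technical. Levels are in RPM, the reads of a miRNA scaled to 1000000 reads on all miRNAs of the library, and an miRNA with no listed count in a library was taken as 0 reads.

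HOX genes encode homeodomain transcription factors that give cells their position along the head-to-tail axis of the embryo, and genes nearer the 5′ end of a cluster are used farther to the rear. The miR-10 genes lie among the middle genes of the clusters, the miR-196 genes lie farther towards the 5′ end, and miRNAs of both families are known to act on transcripts of HOX genes. In the RefSeq gene table of another dog assembly, which served for names and neighbours only, MIR10A lay within the span of HOXB3, between HOXB4 and HOXB5. MIR10B lay between HOXD8 and HOXD3. The gene of miR-196b lay between HOXA9 and HOXA10. The sequence of miR-196a comes from 2 genes, MIR196A-1 between HOXB9 and HOXB13 and MIR196A-2 between HOXC10 and HOXC4, whose reads were counted in 1 row and could not be separated. MiR-10a and miR-10b are near-identical, as are miR-196a and miR-196b, and how well reads were assigned within each pair could not be told from counts, so the values within a pair are uncertain to that extent.

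The libraries held between 157871 and 7896424 reads on miRNAs. The upper limit of a count of 0 at 95% confidence, which is 3 reads, lay between 0.380 and 19.0 RPM depending on depth, and such limits cover counting error only. In 4 tissues some libraries departed from the tissue on their label. Of the thymus, replicates 2, 3 and 5 held 57.0, 113 and 197 RPM of miR-150, a lymphocyte miRNA, against 2543 and 2689 RPM in replicates 1 and 4. Of the duodenum, replicates 3, 4 and 5 held 22363, 5189 and 77588 RPM of the epithelial miR-192, against 267076 and 385247 RPM in replicates 1 and 2. In testis the gonadal miR-202 was at 3340, 241, 0.493, 4905 and 5345 RPM in replicates 1 to 5. In skeletal muscle the myogenic miR-206 was at 4.54 RPM in replicate 4 and at 258 RPM or more in the other samples, and miR-1 and miR-133a, named after their values were seen, were at 9.07 and 676 RPM there against at least 1390 and 36539 RPM. Comparisons that include the thymus, duodenum or skeletal muscle libraries are given with and without them where this changed a result.

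MiR-196a and miR-196b were present in 7 tissues, most of them of the lower trunk and hind limb, and at or near 0 in most libraries of the others. MiR-196a was at 32.4 RPM or more in each of the 31 libraries of ileum, colon, kidney, testis, skeletal muscle, sciatic nerve and bone marrow. In the 45 libraries of the other 9 tissues it was at most 6.33 RPM, and 19 of them held no read. Plasma had 0 reads of miR-196a among 6440642, which allows a pooled level of up to 0.466 RPM. The same 7 tissues held miR-196b at 48.8 RPM or more in every library, and of the remaining 9 tissues, 8 had at most 5.41 RPM. Thymus was the exception, with miR-196b at 168, 0, 1.14, 151 and 13.8 RPM in replicates 1 to 5. The highest values were those of replicates 1 and 4, the samples with high miR-150, while miR-196a was at most 6.33 RPM in all 5 thymus samples.

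MiR-10a and miR-10b were detected in every library and made up far more of it. MiR-10b was the miRNA of highest median RPM in 6 tissues (thymus, kidney, testis, skeletal muscle, sciatic nerve and bone marrow) and stood among the leading 10 in 12 tissues. MiR-10a was among the leading 10 in 11 tissues and led in none. Summed, both took 38.1 to 63.2% of the reads on miRNAs in kidney, with a median of 54.0%, and 30.7 to 61.7% in skeletal muscle. In brain they took 0.104 to 0.336% and in plasma 0.627 to 1.69%. Because RPM is a share, a miRNA that fills much of a library lowers the RPM of all others, and in bulk tissue fewer cells of a type and less RNA per cell cannot be told apart.

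**Figure D1:**
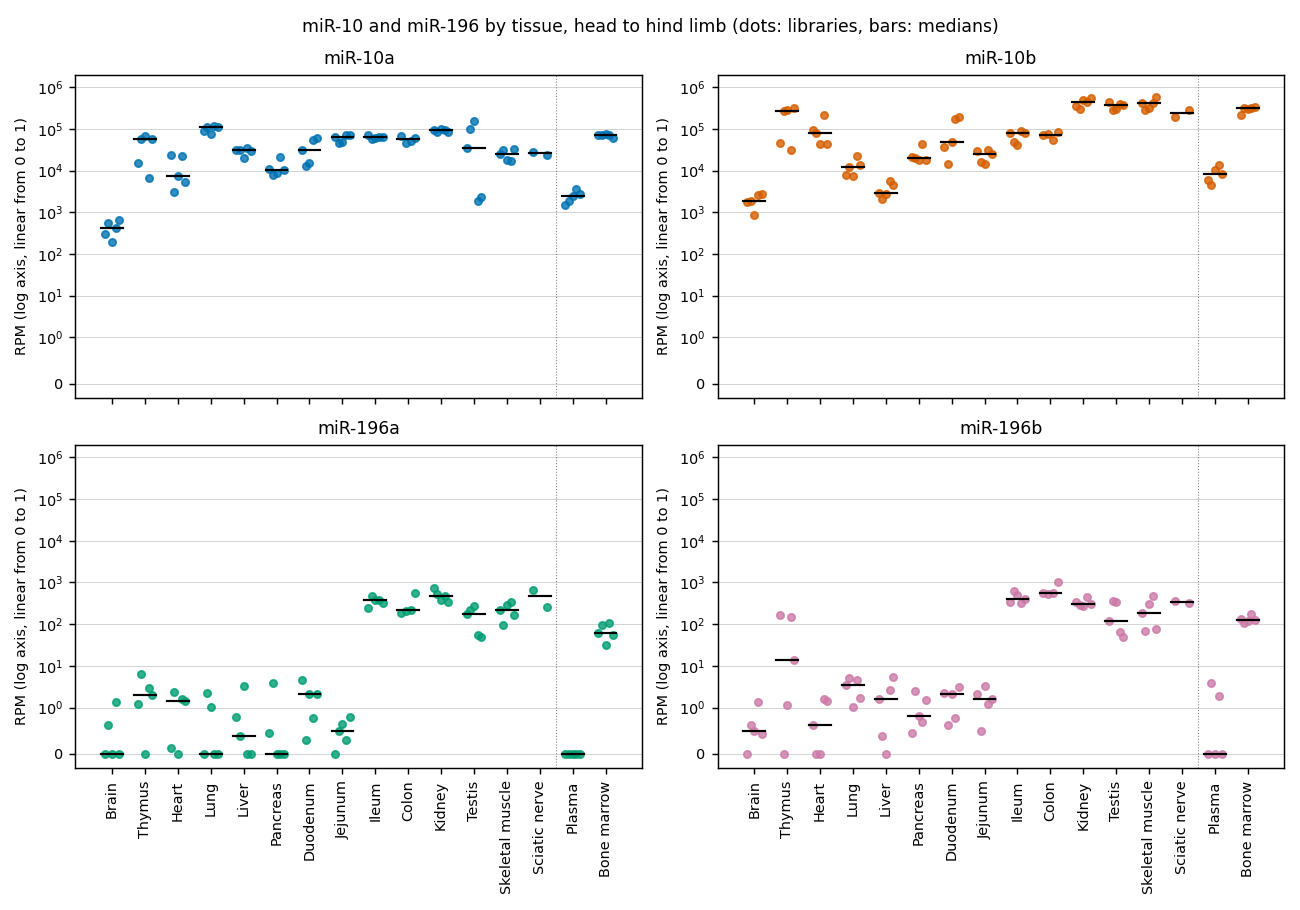
Level of each miRNA in every library (dots) and the tissue median (bars) in RPM on a log axis that is linear from 0 to 1, with tissues ordered from head to hind limb and plasma and bone marrow to the right of the dotted line. MiR-196a steps from at most 0.803 RPM in jejunum to at least 247 RPM in ileum, while miR-10a and miR-10b are present in all libraries and lowest, by the median, in brain.

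**Figure D2:**
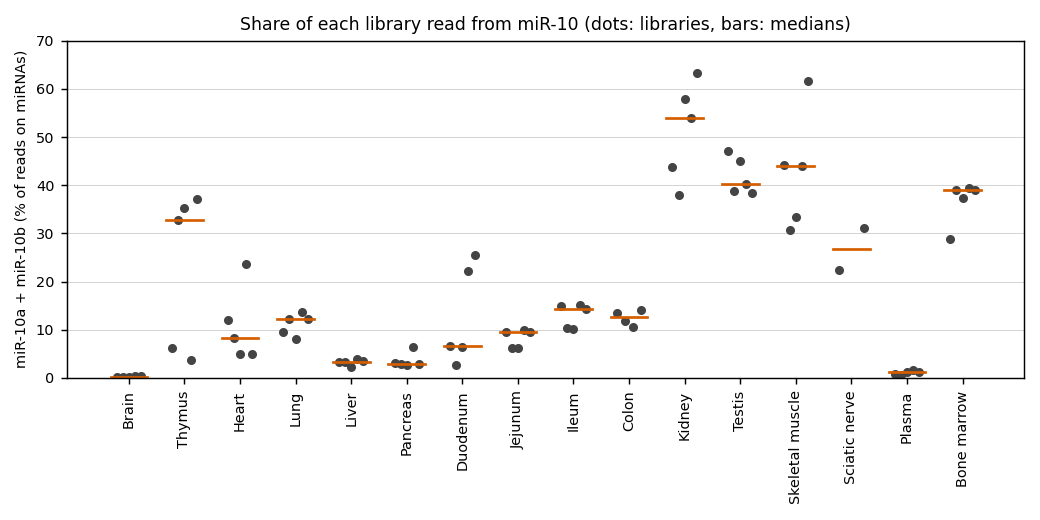
Share of reads on miRNAs taken by miR-10a and miR-10b together in every library (dots) with the tissue median (bars), in percent. The medians run from 0.237% in brain to 54.0% in kidney, and the thymus libraries fall into low and high values.

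In order of the median, miR-10a was highest in lung (109098 RPM), followed by kidney (94677), bone marrow (70759) and jejunum (65235), and lowest in brain (413). Of the 15 steps between neighbours in that order, 13 joined tissues whose samples overlapped. The exceptions were the steps below kidney and below plasma, so that the brain samples, at 192 to 663 RPM, all lay under the plasma samples, at 1488 to 3573 RPM. The median of miR-10b was highest in kidney (445638 RPM), skeletal muscle (416863), testis (381149) and bone marrow (319237), and lowest in liver (2911) and brain (1828). All 15 neighbouring pairs overlapped for miR-10b. For miR-196a, the order opened with kidney (473 RPM), sciatic nerve (465) and ileum (372), and 14 of 15 neighbouring pairs overlapped, the exception being the step below bone marrow (61.6). For miR-196b it opened with colon (558), ileum (393) and sciatic nerve (340), and all 15 pairs overlapped. Sorting by the median favours overlap between neighbours, and neighbours in these orders were not tested as such. The overlaps therefore do not show which neighbouring tissues differed.

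Along the intestine, miR-196a and miR-196b separated the ileum from the segments before it. MiR-196a was at 247, 460, 378, 372 and 327 RPM in the 5 ileum samples and at 0, 0.496, 0.654, 0.301 and 0.803 RPM in the 5 jejunum samples. No jejunum library held more than 1 read of it. MiR-196b was at 344, 639, 507, 314 and 393 RPM in ileum and at 2.10, 0.496, 3.27, 1.21 and 1.61 RPM in jejunum. The groups did not overlap for either miRNA. Against the level of 3 reads in jejunum, under which both means lay, the mean was at least 136-fold higher in ileum for miR-196a (adjusted p = 1.74e-13, edgeR quasi-likelihood test) and at least 168-fold higher for miR-196b (adjusted p = 1.13e-11). These were the 2 of the 4 that passed, where 3.75% of the 480 miRNAs tested were called. MiR-10b did not overlap between these segments either, with 40915 to 87117 RPM in ileum and 14633 to 30444 RPM in jejunum. Its fitted log2 difference of 1.43 ± 0.55 (SE) had an adjusted p of 0.152, which became 0.00895 in a fit of the jejunum and ileum alone. The log2 difference of miR-10a was -0.05 ± 0.63 (SE, adjusted p = 1). Marker miRNAs were also read across this boundary. The summed level of 3 of 3 acinar miRNAs did not overlap, at 8.93 to 26.5 RPM in jejunum and 1.37 to 3.57 RPM in ileum. Sums of epithelial and of smooth muscle markers overlapped. The summed level of 7 of 7 epithelial markers was 298196 to 550457 RPM in jejunum and 71916 to 329216 RPM in ileum, and that of 2 of 2 smooth muscle markers was 91771 to 171054 RPM in jejunum and 137273 to 440324 RPM in ileum. Their part in the result was not tested.

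Between colon and ileum none of the 4 passed the test. In colon, miR-196a was at 186, 212, 223 and 544 RPM and miR-196b at 551, 531, 566 and 1030 RPM. Both were highest in replicate 5, and both overlapped the ileum range. The log2 difference of colon to ileum was 0.77 ± 0.61 (SE) for miR-196b with an adjusted p of 0.823, and it lay between -0.20 and 0.22 for the others. In the edgeR fit 0 of the 4 had an unadjusted p under 0.05, and 0.208% of all miRNAs were called, which is 1 miRNA. In a fit of these 2 segments alone, the adjusted p of miR-196b was 0.102, and DESeq2 called none of the 4.

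Jejunum and duodenum differed in miR-10b alone, and that difference rested on 3 duodenum samples. MiR-10b was at 36113, 14735, 49081, 168299 and 193849 RPM in duodenum and at 29029, 16185, 14633, 30444 and 25307 RPM in jejunum. Only replicate 2 of duodenum lay within the jejunum range, and replicates 4 and 5 were the highest. The log2 difference of jejunum to duodenum was -2.49 ± 0.57 (SE, adjusted p = 0.00118), the 1 call among the 4, where 9.38% of all miRNAs were called. Without those 3 duodenum samples it was -0.01 ± 0.62 (adjusted p = 1). In a fit of both segments alone the log2 difference stayed at -2.48, with an adjusted p of 0.119. The 3 samples were those with low miR-192. Their summed epithelial markers stood at 24988, 6173 and 90956 RPM against 333479 and 540258 RPM in the other samples, and their miR-143, a smooth muscle miRNA, at 604122, 408300 and 209375 RPM against 132689 and 84748 RPM. Summed blood miRNAs were at 22898, 74447 and 33885 RPM against 2768 and 1733 RPM, and summed leukocyte miRNAs at 418, 264 and 1606 RPM against 6854 and 9281 RPM. The part of these markers in the result was not tested. MiR-196a and miR-196b were at most 4.52 RPM in every sample of both segments.

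Heart and skeletal muscle, striated muscles of the thorax and the hind limb, differed in 3 of the 4, where 12.7% of all miRNAs tested were called. MiR-196a was at 0.127, 2.38, 0, 1.63 and 1.43 RPM in heart and at 221, 96.1, 284, 331 and 162 RPM in skeletal muscle. MiR-196b was at 0.633, 0, 0, 1.63 and 1.43 RPM in heart and at 184, 68.0, 296, 467 and 76.0 RPM in skeletal muscle. The groups lay far apart for both. Against the level of 3 reads in heart, the mean was at least 66.6-fold higher in skeletal muscle for miR-196a (adjusted p = 1.97e-12) and at least 66.4-fold higher for miR-196b (adjusted p = 3.01e-11). MiR-10b was at 95299, 78768, 42224, 213239 and 43755 RPM in heart and at 416863, 276794, 315838, 423906 and 583466 RPM in skeletal muscle, again without overlap. Its log2 difference of heart to skeletal muscle was -2.55 ± 0.57 (SE, adjusted p = 0.000685). MiR-10a overlapped, with 3076 to 24099 RPM in heart and 16884 to 33296 RPM in skeletal muscle. Its log2 difference of -1.46 ± 0.65 had an adjusted p of 0.130, which was 0.0401 with DESeq2 size factors, 0.0445 with library totals without the reads of the 4, and 0.0257 in the DESeq2 test. Replicate 4 of skeletal muscle, the sample with little miR-206, held 423906 RPM of miR-10b, 331 RPM of miR-196a and 467 RPM of miR-196b. Its miR-196a and miR-196b were the highest of the tissue. Without replicate 4, 3 of the 4 were called as before. The summed smooth muscle miRNAs were at 97931 to 136305 RPM in heart and 25158 to 44202 RPM in skeletal muscle, and their part in these differences was not tested.

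The mean of thymus, heart and lung was compared with that of kidney, colon, skeletal muscle and sciatic nerve, as tissues of the chest against tissues of the rear. The same 3 passed, where 21.5% of all miRNAs were called. MiR-196a did not overlap between the 15 thoracic and 16 caudal samples, at 0 to 6.33 RPM against 96.1 to 753 RPM, and the mean was at least 91.8-fold higher in the caudal samples, against the level of 3 reads in the thoracic ones (adjusted p = 3.11e-24). In RPM means, miR-196b was 16.6-fold higher there (adjusted p = 3.78e-19) and overlapped, since replicates 1 and 4 of thymus reached 168 and 151 RPM. The RPM mean of miR-10b was 2.88-fold higher in the caudal tissues. The fit averages tissues on the log scale after TMM scaling, and there the log2 difference of miR-10b, thoracic to caudal, was -2.16 ± 0.33 (SE, adjusted p = 4.60e-07). MiR-10a did not pass, and its scales differed in sign, with RPM means of 50803 in thoracic and 49448 in caudal tissues and a fitted log2 difference of -0.43 ± 0.37 (adjusted p = 0.483). Without the 3 thymus samples low in miR-150, the log2 difference was -1.21 ± 0.42 for miR-10a (adjusted p = 0.0212) and -3.07 ± 0.39 for miR-10b (adjusted p = 5.78e-09). Without any thymus sample, that of miR-10a was -0.50 ± 0.42 (adjusted p = 0.452), that of miR-10b -2.97 ± 0.40 (adjusted p = 1.18e-08) and that of miR-196b went from -6.26 to -8.00 (adjusted p = 1.46e-18).

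Within the thymus, the miR-10 pair followed the split among libraries. MiR-10b was at 271646, 283447 and 313113 RPM in replicates 2, 3 and 5 and at 46591 and 30954 RPM in replicates 1 and 4. MiR-10a was at 56413, 68197 and 58328 RPM in the former and at 15136 and 6656 RPM in the latter. The summed level of 3 of 3 leukocyte miRNAs was 291 to 546 RPM in replicates 2, 3 and 5 against 11695 and 16606 RPM in replicates 1 and 4, and miR-181a, abundant in developing T cells, was at 41991 to 53348 RPM against 426312 and 500018 RPM. The ratio of miR-10b to miR-10a hardly followed the split, at 4.16 to 5.37 in replicates 2, 3 and 5 and 3.08 and 4.65 in replicates 1 and 4. Some of the other marker miRNAs moved with miR-10 in the same split, without overlap. In replicates 2, 3 and 5 the summed smooth muscle miRNAs were at 133634, 92885 and 96522 RPM against 33244 and 15956 RPM, the endothelial miRNA at 26541, 29193 and 27897 RPM against 9684 and 4287 RPM, and the summed blood miRNAs at 63723, 92479 and 44927 RPM against 20569 and 4774 RPM. The summed fibroblast miRNAs overlapped, at 2230, 1751 and 2054 RPM against 1834 and 739 RPM. The summed epithelial miRNAs ran the other way, at 3775, 1442 and 2040 RPM against 4554 and 5800 RPM. What part these markers had in the levels was not tested.

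**Figure D3:**
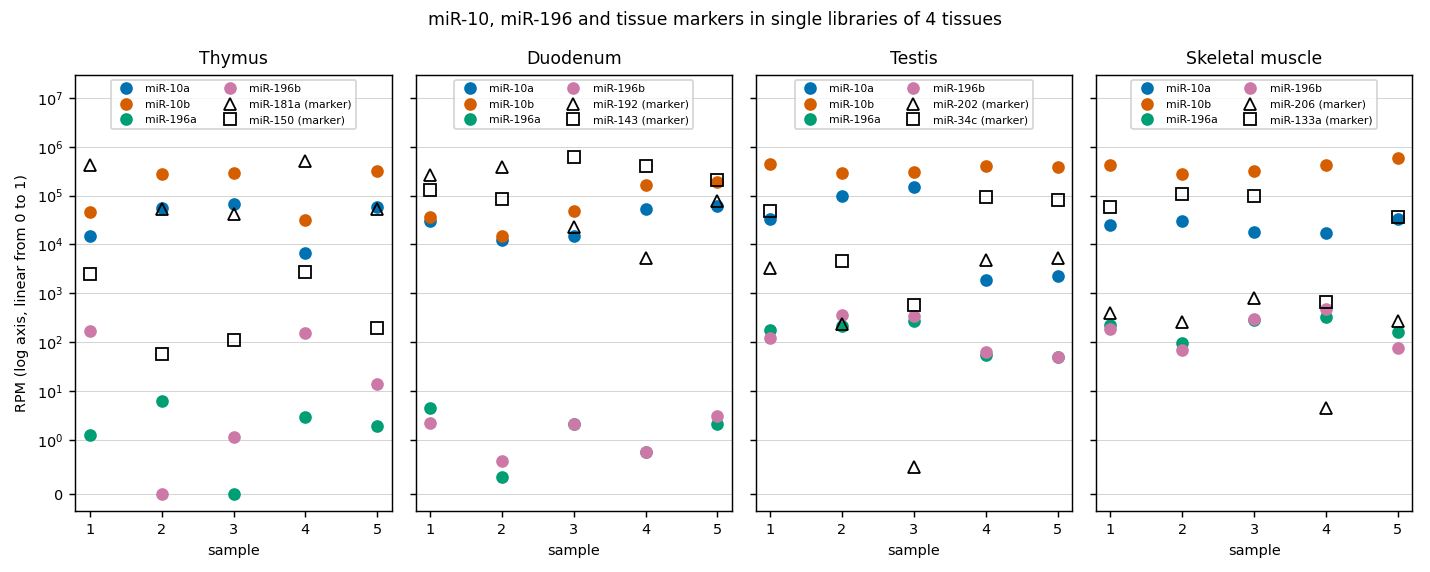
Level in RPM (log axis, linear from 0 to 1) of the miR-10 and miR-196 miRNAs (filled) and of a pair of marker miRNAs (open) in each sample of thymus, duodenum, testis and skeletal muscle. In thymus miR-10b is high where miR-150 is low, and in testis miR-10a falls from 150298 RPM in sample 3 to 1881 RPM in sample 4. In skeletal muscle, sample 4 has the highest miR-196a and miR-196b of its tissue, and its miR-10b is within the range of the others.

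Brain, at the head end of the axis, had less of all 4 than the mean of the 13 other solid tissues. MiR-10a was at 302, 541, 192, 413 and 663 RPM in brain, and its lowest value in the other solid tissues was 1881 RPM. MiR-10b was at 1802, 1828, 851, 2526 and 2693 RPM in brain, and its lowest values elsewhere, in liver, began at 2059 RPM. No brain library held more than 2 reads of miR-196a or of miR-196b. The log2 difference of brain to the other solid tissues was -7.65 ± 0.81 (SE) for miR-10a (adjusted p = 2.86e-13) and -6.45 ± 0.65 for miR-10b (adjusted p = 3.08e-14). MiR-196a and miR-196b passed as well (adjusted p = 1.19e-10 and 6.28e-11), with means at least 80.0-fold and 91.2-fold higher in the other solid tissues. Low miR-196 was not particular to brain, and both ranges overlapped. Mean miR-196a was 0.395 RPM in brain, 0.451 in jejunum and 0.653 in lung. Mean miR-196b was 0.581 RPM in brain, 0.740 in heart and 1.19 in pancreas. The folds thus rest on the solid tissues in which miR-196 was present. The count of 4 of 4 stands beside 74.4% of all miRNAs called in this comparison.

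The sciatic nerve, a peripheral nerve of the hind limb, held all 4 at far higher levels than brain. In its 2 samples miR-196a was at 671 and 259 RPM, miR-196b at 361 and 319 RPM, miR-10a at 28400 and 23726 RPM and miR-10b at 196096 and 288344 RPM. Each of these values lay above every brain value. The log2 difference of nerve to brain was 6.60 ± 0.86 (SE) for miR-10a (adjusted p = 3.61e-09) and 7.69 ± 0.75 for miR-10b (adjusted p = 4.40e-13). Means of miR-196a and miR-196b were at least 243-fold and 178-fold higher in nerve (adjusted p = 4.93e-15 and 4.00e-13). In this comparison 45% of all miRNAs were called. With 2 nerve libraries that may come from a pool, these p-values lean on the spread estimated over all tissues.

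Kidney, which arises from mesoderm of the rear trunk, was higher than the mean of the 13 other solid tissues in 4 of 4, where 36.7% of all miRNAs were called. MiR-10b was at 343161, 297875, 478946, 445638 and 547844 RPM in kidney, with a fitted log2 difference of 3.77 ± 0.29 (SE, adjusted p = 3.11e-18), in which each tissue has equal weight on the log scale. MiR-10a was at 95599, 82800, 100359, 94677 and 84567 RPM, with a log2 difference of 2.45 ± 0.37 (adjusted p = 9.52e-08). MiR-196a was at 753, 533, 378, 473 and 336 RPM and miR-196b at 344, 289, 277, 447 and 304 RPM. Their fitted log2 differences were 6.56 ± 0.31 (adjusted p = 8.26e-28) and 5.11 ± 0.32 (adjusted p = 2.33e-22), sizes that lean on the tissues near 0 and on the prior count of the fit. In RPM means kidney was 4.31-fold higher for miR-196a, 3.47-fold for miR-10b, 2.31-fold for miR-10a and 2.23-fold for miR-196b. Kidney samples overlapped those of other tissues for all 4, since skeletal muscle reached 583466 RPM of miR-10b and colon 1030 RPM of miR-196b.

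**Figure D4:**
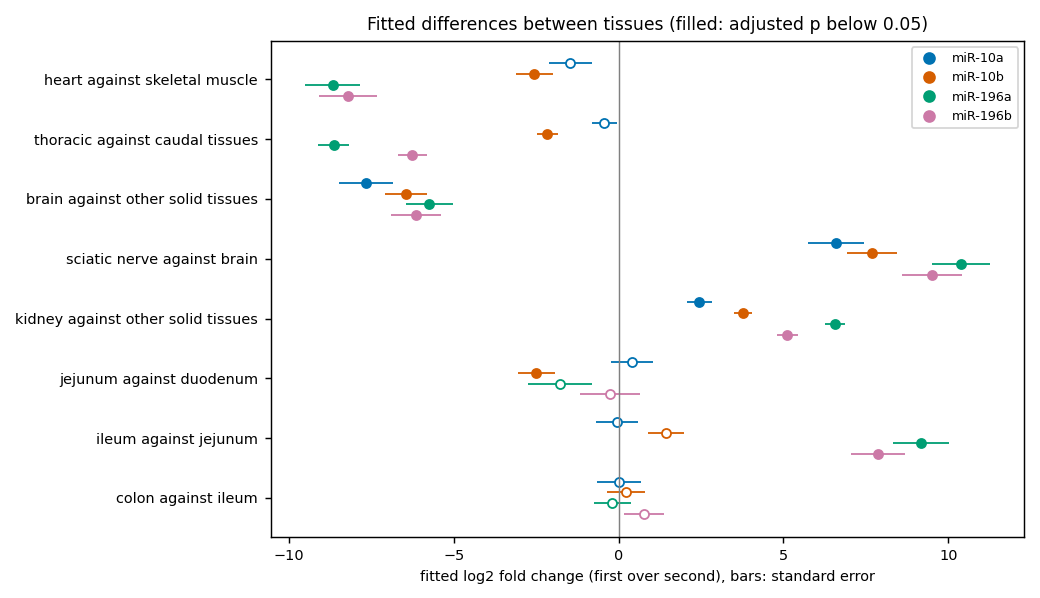
Fitted log2 fold change with its standard error for the 4 miRNAs in 8 comparisons, first over second, filled where the adjusted p was below 0.05. Fitted values of miR-196 against tissues whose libraries hold at most 3 reads depend on the prior count of the fit and are no measure of size. MiR-10a is filled only in the comparisons that involve brain and in that of kidney, and no point is filled for colon against ileum.

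Tissue enrichment (TE) required a ratio above 5 of the tissue's mean to the mean of the remaining samples, an adjusted rank-sum p under 0.05 and a tissue median above 100 RPM, and 2 pairs of miRNA and tissue qualified. MiR-196b was TE in colon with a ratio of 6.32 (adjusted p = 0.00177, two-sided exact rank-sum test), a ratio that became 4.61 (adjusted p = 0.104) with library totals without the reads of the 4. MiR-196a was TE in kidney with a ratio of 5.73 (adjusted p = 0.00139, exact rank-sum test). The ratio fell to 4.98, below the criterion, when replicate 1 of kidney, the sample with 753 RPM, was left out, and to 4.75 against the mean of the other tissue means. The study itself reported no TE miRNA in kidney. Its definition of TE gives the ratio and the rank-sum p without a tissue median, and its set of nerve samples was larger. The calls here were therefore not made in the same way as those of the study. Of the 650 miRNAs with a read, 161 (24.8%) were TE in at least 1 tissue. That share counts miRNAs without a tissue median above 100 RPM, which could not qualify, while all 4 had one. Besides the 4, only 262 miRNAs had such a median, and all 161 came from these 262 and the 4. The share among miRNAs that could qualify was thus far above 24.8%, and the 2 pairs are not read as an excess among the 4. MiR-10a and miR-10b were TE in none, with ratios of at most 2.54, in lung, and 3.47, in kidney. MiR-196a in sciatic nerve reached a ratio of 4.48.

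The balance within the miR-10 pair depended on the tissue, and as a ratio within a library it does not change with the scaling between libraries. In lung and liver miR-10a was the more abundant, with miR-10b at a median of 0.110 and 0.132 times its level. In jejunum the median ratio of miR-10b to miR-10a was 0.360, in ileum 1.07, in colon 1.21 and in kidney 4.71. It was 8.30 in heart, 9.16 in sciatic nerve and 17.5 in skeletal muscle, and the samples of heart (3.95 to 25.6) and skeletal muscle (9.03 to 25.1) overlapped.

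Of 9 comparisons made over both ratios, 6 passed an exact permutation test after adjustment. The ratio was 37.8-fold higher in kidney than in lung and 3.59-fold higher in kidney than in colon, without overlap (each adjusted p = 0.0119, exact permutation test). It was 5.69-fold lower in jejunum than in duodenum and 2.67-fold higher in ileum than in jejunum (each adjusted p = 0.0119, exact permutation test). The unadjusted p of each of these exact permutation tests was 0.00794, the smallest that samples of this number can give. Without the 3 duodenum samples low in miR-192, the log2 difference of jejunum to duodenum was -1.64, and with 2 samples left the adjusted p was 0.0714 (exact permutation test). Both remaining duodenum ratios, 1.17 and 1.18, lay above the jejunum range of 0.310 to 0.445. The unadjusted p was then the smallest that this test can give for so few samples. The ratio did not pass between skeletal muscle and heart (1.92-fold, adjusted p = 0.125), kidney and heart (1.89-fold, adjusted p = 0.0918) or colon and ileum (1.25-fold, adjusted p = 0.238), by the same exact permutation test. The first of these passed without replicate 2 of heart (adjusted p = 0.0306) and the second without replicate 1 of heart (adjusted p = 0.0204, exact permutation test).

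**Figure D5:**
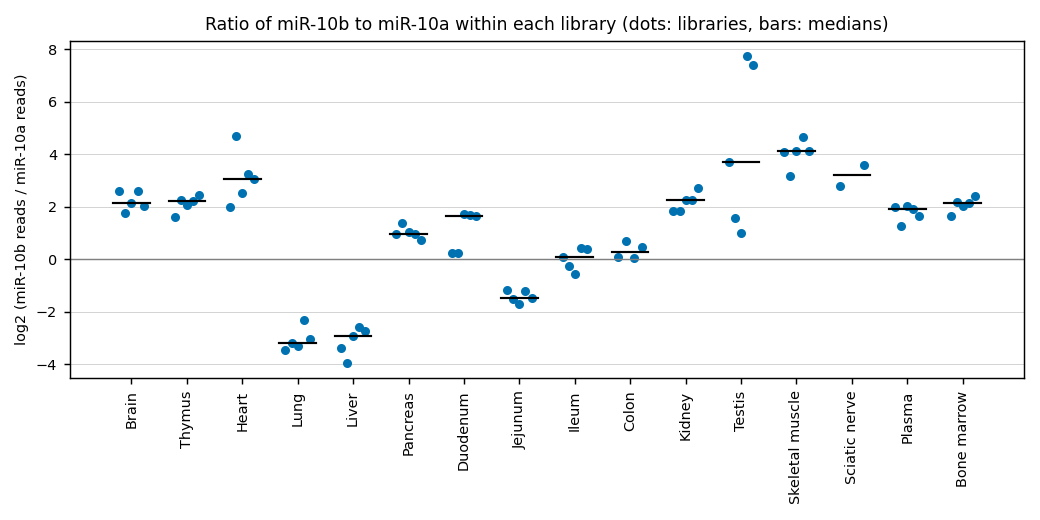
Log2 ratio of miR-10b to miR-10a reads in every library (dots) with the tissue median (bars), where 0 marks equal reads. Lung, liver and jejunum lie below 0 in all samples, ileum straddles it, and testis spreads from 1.00 to 7.73.

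The ratio of miR-196a to miR-196b could be taken in libraries with at least 10 reads of both summed. Its median was 1.37 in kidney, 0.745 in ileum, 0.397 in colon and 0.467 in bone marrow. It was 2.02-fold lower in colon than in ileum and 3.55-fold higher in kidney than in colon, without overlap (each adjusted p = 0.0119, exact permutation test). In replicates 1 and 4 of thymus, where miR-196b was present, the ratio was 0.0112 and 0.0203. Kidney thus carried more of miR-196a, and colon and the miR-150-rich thymus samples more of miR-196b.

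In testis miR-10a differed most between libraries, and miR-10b did not follow it. MiR-10a was at 33942, 98475, 150298, 1881 and 2284 RPM in replicates 1 to 5, a range of 79.9-fold, while miR-10b was at 437198, 290233, 299761, 400838 and 381149 RPM. MiR-196a was at 177, 219, 269, 54.6 and 48.8 RPM and miR-196b at 121, 368, 344, 63.8 and 48.8 RPM, in the same samples high and low as miR-10a. The testis markers ran the other way, since miR-34c, a miRNA of male germ cells, was at 49237, 4631, 582, 93353 and 80187 RPM and miR-202 was lowest in replicates 2 and 3. Other markers were highest in replicates 2 and 3, like miR-10a. The summed smooth muscle miRNAs were at 91582, 287874, 239419, 75315 and 82510 RPM, and the summed epithelial miRNAs at 4328, 6553, 11238, 4108 and 3649 RPM. Their part in the miR-10a levels was not tested.

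Bone marrow and plasma have no place on the body axis. In bone marrow miR-10b was at 217171, 319237, 300029, 321393 and 327584 RPM, and miR-196b at 136, 105, 119, 175 and 129 RPM. Bone marrow libraries were shallow, and their miR-196a levels of 61.6, 96.2, 32.4, 106 and 55.2 RPM rested on 6 to 23 reads each. The study reports low RNA integrity in bone marrow, plasma and some kidney samples, which mapped like the other kidney samples. Its bone marrow RNA was isolated by another method than that of the organs. In plasma miR-10b was at 4435 to 13342 RPM and miR-10a at 1488 to 3573 RPM, while the summed blood miRNAs stood at 543769 to 815725 RPM. Of miR-196b, plasma held 10 reads in all.

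The hairpins of these miRNAs also give a product from the other arm, which was listed under its human name. Over all libraries, miR-10a had 5931822 reads and its other arm 3313, a ratio of 1790, and miR-10b had 16462069 and 2377, a ratio of 6926. The ratio was 177 for miR-196a and 214 for miR-196b, whose other arms had 109 and 108 reads. The other arms of the miR-10 pair, hsa-miR-10a-3p and hsa-miR-10b-3p, were lower in brain than in the other solid tissues, like their partners (log2 difference -6.58 ± 0.69 and -5.73 ± 0.72 SE, adjusted p = 1.41e-13 and 8.05e-11). Of these, hsa-miR-10b-3p also differed between heart and skeletal muscle in the same direction as miR-10b (log2 difference -2.21 ± 0.59 SE, adjusted p = 0.00654). The other arms of miR-196a and miR-196b each had 16 reads in ileum and 0 in jejunum. In colon the other arm of miR-196a had 0 reads beside 3780 of miR-196a, where ileum had 16 beside 3325, a pattern picked out after its values were seen. A count of 0 allows up to 0.255 RPM over the pooled colon reads, and the 5 ileum samples lay at 1.19 to 3.80 RPM.

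MiR-99a and miR-99b are relatives of miR-10 in sequence that lie outside the HOX clusters, and they were not low in brain. MiR-99b was at 6701, 4802, 7467, 7487 and 5914 RPM in brain, above every other solid tissue library, with a log2 difference of 1.63 ± 0.27 (SE, adjusted p = 2.01e-07). MiR-99a was at 1734 to 2789 RPM in brain, and its log2 difference of 0.41 ± 0.29 did not pass (adjusted p = 0.207). MiR-99a was higher in sciatic nerve than in brain (log2 difference 1.24 ± 0.51 SE, adjusted p = 0.0428, edgeR quasi-likelihood test). Its fitted level was also higher in kidney than in the other solid tissues (0.88 ± 0.28 SE, adjusted p = 0.00877, same test). In RPM means it was lower in kidney, at 946 against 1188 RPM. MiR-99b passed in neither comparison (adjusted p = 0.192 for nerve and 0.259 for kidney). Between heart and skeletal muscle neither miRNA passed (adjusted p = 0.194 for miR-99a and 0.506 for miR-99b). Both were lower in jejunum than in duodenum (log2 difference -2.92 ± 0.44 and -2.05 ± 0.45, adjusted p = 1.82e-06 and 0.000702), the comparison in which no miRNA was called without the 3 duodenum samples low in miR-192.

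Across the 16 tissue medians, which share libraries and depth and are not independent, the Spearman correlation was 0.873 between miR-196a and miR-196b and 0.810 between miR-10b and miR-196a. It was 0.359 between miR-10a and miR-10b. Among 262 miRNAs with a tissue median above 100 RPM, the 3 most like miR-10a were miR-374b (0.712), hsa-miR-424-5p (0.685) and miR-532 (0.671). Those most like miR-10b were hsa-miR-199b-5p (0.515), hsa-miR-378a-5p (0.476) and miR-133b (0.446). For miR-196a they were miR-133b (0.518), miR-874 (0.464) and hsa-miR-874-5p (0.462), and for miR-196b they were miR-155 (0.547), miR-28 (0.532) and miR-199 (0.479). The other arms were below that level and were not candidates, and hsa-miR-10b-3p had a correlation of 0.940 with miR-10b.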

How the data were processed

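The authors removed adaptors, used OSA to place reads without mismatch on the CanFam3.1 genome, discarded those that mapped to many places, and used bedtools to count reads on miRNA loci annotated in dog, rat or human. The deposited counts, the deposited total of reads on miRNAs and the RPM that the authors computed from both were read per sample, and absent rows were set to 0 counts. RPM computed again from the counts matched within a relative 2.89e-09. Counts of a sample exceeded its total by 0.0449 to 1.16%, so some reads were counted on more than 1 miRNA. Counts of the 147 pairs of libraries within tissues differed by more than counting error. For 1 sample name no label matched, and 1 labelled colon sample had no values here, so neither was used.

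Counts were fitted over 16 tissues in R 4.3.3 by the quasi-likelihood test of edgeR 4.0.16, after filterByExpr had left 480 miRNAs, with TMM scaling and Benjamini-Hochberg adjustment. Tissue enrichment used two-sided exact rank-sum tests on RPM and a tissue median above 100 RPM. Ratios used two-sided exact permutation tests, with 0.5 reads added and at least 10 reads summed. Folds against groups with at most 3 reads per library, or with a mean under the level of 3 reads, are lower bounds. Alternatives were DESeq2 1.42.0, other scalings, filters and sample sets. The miRNAs named are the 4 chosen, the other arms of their hairpins, miR-99a and miR-99b, the 3 most like each by tissue medians, and markers; miR-133a and miR-1 of muscle were looked at after values were seen. The 4 miRNAs are given by a rule on names, but they, the lists and the tests were chosen with earlier results of these data known. The procedures were tested on simulated data. Versions were Python 3.11.15, scipy 1.17.1, pandas 2.3.3, matplotlib 3.10.9 and numpy 2.4.6.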

Additional observations from a re-analysis of the deposited data

Results flagged for a closer look

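Samples that stood far from the others of their tissue were sought in 51 groups of a miRNA and a tissue with 4 or 5 samples, and 7 groups held one, in 4 tissues. In independent groups of normally distributed values, chance alone flags about 1 in 20. RPM values need not be so distributed, and groups of different miRNAs share libraries. The number that chance would flag here is therefore not known. In colon, replicate 5 was highest in both miR-196a, at 544 RPM against 186 to 223 RPM, and miR-196b, at 1030 RPM against 531 to 566 RPM. In pancreas, replicate 4 was highest in both miR-10a, at 21625 RPM against 7797 to 10725 RPM, and miR-10b, at 42082 RPM against 17563 to 21006 RPM. Replicate 2 of pancreas held 3.78 RPM of miR-196a, which is 6 reads, against at most 0.447 RPM in the others. In liver, replicate 3 was lowest in miR-10a, at 20481 RPM against 30075 to 33836 RPM. In bone marrow, replicate 1 was lowest in miR-10b, at 217171 RPM against 300029 to 327584 RPM.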

How the results depend on the processing

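All 21 fold changes of the 4 miRNAs that passed kept their direction and call under 3 other scalings, although these moved the median log2 difference of all miRNAs from 0.15 to 1.18 in brain, from -0.72 to -1.39 in nerve against brain, from -0.14 to -0.71 in kidney and by at most 0.25 in the other comparisons, and the share of calls that were higher from 49.2% to between 27.8 and 67.6% in heart against skeletal muscle, from 46.6% to between 30.7 and 67.8% in thoracic against caudal tissues, from 64.2% to 32.8% in kidney, from 59.1% to 81.0% in brain, from 39.8% to 19.6% in nerve against brain and from 38.9% to between 31.8 and 64.3% in ileum against jejunum. With only the compared tissues fitted, the miRNAs called numbered 30 instead of 61 (heart against skeletal muscle), 0 instead of 45 (jejunum against duodenum, none of the 4), 49 instead of 18 (ileum against jejunum) and 4 instead of 1 (colon against ileum, 2 in DESeq2), and jejunum against duodenum gave 26 with library totals. Without the 3 duodenum samples, a choice made after seeing the data as were all exclusions of several or named libraries, that comparison called 0. Signs turned for uncalled values only: miR-196b in jejunum against duodenum (0.038 with library totals, 0.56 without the 3 samples), and miR-10a in ileum against jejunum (0.085 with library totals, 0.16 with totals without the 4) and in colon against ileum (-0.19 and -0.20). TE pairs numbered 2, and 4 with TMM sizes (adding miR-10b in kidney and skeletal muscle), 1 with totals without the 4 (miR-196a in kidney), 7 with medians and 1 against tissue means (miR-196b in colon), while 355 miRNAs instead of 161 were TE with no filter on the level. With each sample left out in turn, the calls among the 4 stayed at 3, 3, 4, 4, 4, 1, 2 and 0 in the 8 comparisons, TE pairs ranged from 1 to 2, called miRNAs from 110 to 219 in nerve against brain (110 without nerve replicate 1, 138 without replicate 2) and from 24 to 83 in jejunum against duodenum (24 and 83 without duodenum replicates 3 and 2, 29 and 25 without jejunum replicates 2 and 4). The uncalled values that turned sign ranged from -0.60 to 0.15 for miR-196b in jejunum against duodenum, from -0.20 to 0.077 for miR-10a in ileum against jejunum and from -0.18 to 0.20 in colon against ileum. The cause of these changes was not tested. No paired analysis was possible because the labels carry no dog number. Depth limited the miR-196 levels in the tissues where libraries held at most a few reads.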
